A study of Mus musculus with 4 samples.

Results

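H3K23 propionylation (H3K23pr), a histone mark whose propionyl group is donated by propionyl-CoA, was read at 10 genes of the transforming growth factor beta (TGF-β) pathway in mouse hearts. The genes are the ligands Tgfb1, Tgfb2 and Tgfb3, the latent binding protein gene Ltbp1, and the receptors Tgfbr1, Tgfbr2 and Tgfbr3. The others are the signal transducers Smad2 and Smad3 and the feedback inhibitor Smad7. The 10 genes are among 17640 named in the deposited table of merged peak regions, and 32 of its 29210 regions list at least 1 of them. Each gene was followed at the region whose middle lies nearest to its transcription start and at any further region that lists it.

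The hearts were from C57Bl/6J males, 12 weeks old. In 4 groups, mice had transverse aortic constriction (TAC) on a diet lacking leucine, isoleucine and valine (BCAA-free), TAC on a control diet, sham surgery on the BCAA-free diet, or sham surgery on the control diet. TAC narrows the aorta surgically and puts the left ventricle under pressure overload, and the control diet held all essential amino acids at the level of standard chow. Diets began 4 days before surgery and were kept until hearts were taken 1 week after it. Each group was 1 ChIP-seq library from a pool of 3 hearts, made with an antibody against propionylated H3K23. With 1 library per group there was no test, and higher and lower compare libraries. No input library was used here, and no source used here states how the libraries were scaled. The regions held 11291348 to 11886699 estimated tags per library. Heart tissue mixes several cell types, so fewer cells of a type and less of the mark per cell cannot be told apart.

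TGF-β ligands are secreted in an inactive complex with their propeptide, which latent TGF-β binding proteins such as LTBP1 tether to the matrix. Once released, a ligand binds the type II receptor TGFBR2, which phosphorylates the type I receptor TGFBR1, while the co-receptor TGFBR3 (betaglycan) presents ligand, TGF-β2 above all. TGFBR1 then phosphorylates SMAD2 and SMAD3, which enter the nucleus with SMAD4, and SMAD7 inhibits this step as a feedback. In the pressure-overloaded heart the pathway is known for turning fibroblasts into matrix-producing cells.

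All 10 nearest regions covered the start as the authors placed it, held a promoter and a CpG island, and had a peak call in all 4 libraries. Over the nearest regions of all genes, 92.3% held a promoter, 72.8% a CpG island and 81.3% had all 4 calls. The members' nearest regions were long, with a median of 35.9 kb against 7.6 kb for all genes, and 6 of 10 reached 30 kb, against 8.77% of all genes. The other 22 regions had a median of 6.9 kb. Among these 22, 13 were called in all 4 libraries and 1 held a promoter and a CpG island. For 7 genes the nearest region listed no other gene. That of Tgfb1 was shared with Exosc5, Tmem91 and B9d2, that of Tgfb3 with Ift43 and that of Smad3 with Aagab, so those values belong to the region and not to 1 gene.

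The 250 bases upstream of the start are shown for the members with the highest and the lowest mean TAC over sham ratio among the 6 with an entry in the promoter table used here (RefSeq, GRCm38.p6), since these stretches lie within the propionylated regions described below. Sequences run 5′ to 3′ on the strand of the gene. Capitals mark AGAC, the SMAD-binding element, on either strand (GTCT on the opposite one).
Tgfb1 (chr7:25686752-25687001, plus strand): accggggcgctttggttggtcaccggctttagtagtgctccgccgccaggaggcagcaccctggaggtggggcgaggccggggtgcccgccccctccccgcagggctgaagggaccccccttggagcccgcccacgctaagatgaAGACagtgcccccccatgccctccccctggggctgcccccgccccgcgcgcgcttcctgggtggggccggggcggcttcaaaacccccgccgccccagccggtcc
Tgfbr1 (chr4:47352972-47353221, plus strand): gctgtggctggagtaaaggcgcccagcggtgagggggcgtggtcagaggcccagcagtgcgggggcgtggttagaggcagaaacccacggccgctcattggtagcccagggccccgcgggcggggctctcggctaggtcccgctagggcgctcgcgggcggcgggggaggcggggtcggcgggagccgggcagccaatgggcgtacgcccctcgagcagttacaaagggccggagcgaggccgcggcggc
Smad3 (chr9:63757995-63758244, minus strand): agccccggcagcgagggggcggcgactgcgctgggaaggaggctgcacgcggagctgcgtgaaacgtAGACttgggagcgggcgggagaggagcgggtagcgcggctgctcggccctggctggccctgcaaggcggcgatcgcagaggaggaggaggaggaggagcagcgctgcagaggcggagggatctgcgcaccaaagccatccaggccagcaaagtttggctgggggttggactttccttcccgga
Ltbp1 (chr17:75005279-75005528, plus strand): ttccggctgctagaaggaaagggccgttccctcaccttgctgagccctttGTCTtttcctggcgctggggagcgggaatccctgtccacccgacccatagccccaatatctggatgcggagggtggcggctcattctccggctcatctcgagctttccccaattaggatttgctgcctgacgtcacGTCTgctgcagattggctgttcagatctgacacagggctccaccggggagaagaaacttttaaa
AGAC was found 1 time upstream of Tgfb1, 0 times upstream of Tgfbr1, 1 time upstream of Smad3 and 2 times upstream of Ltbp1. It occurs in 82.9% of 32851 mouse promoter windows of the same 250 bases, so these matches describe the sequence only. GGGCGG, the Sp1 motif, was found 5 times upstream of Tgfb1, 2 times each upstream of Tgfbr1 and Smad3, and 0 times upstream of Ltbp1, against 32.7% of all windows with a match. CAGACA (17.1% of all windows, overlapping AGAC) and the AP-1 motif TGANTCA (6.75%) had no match in these 4 stretches. Both strands were searched. The GC content was 75.2% for Tgfb1, 74.8% for Tgfbr1, 69.2% for Smad3 and 56.8% for Ltbp1, against a median of 52.4% over all windows.

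By the mean average signal of the 4 libraries (a fragment density, and so a level per length), the nearest regions were ordered Smad7 (12.8), Tgfbr3 (12.1), Tgfb1 (11.6), Tgfb3 (9.72), Tgfbr2 (9.39), Smad3 (9.20), Ltbp1 (8.51), Tgfbr1 (7.45), Tgfb2 (7.02) and Smad2 (5.75). Smad7 lay at percentile 87.8 of all genes and Smad2 at percentile 11.6. In this order, 8 of 9 neighbouring pairs had ranges over the 4 libraries that overlapped, and the exception was Tgfb1 above Tgfb3. The order at the top differed between libraries: Smad7 was the densest in BCAA-free TAC, Tgfb1 in control TAC and Tgfbr3 in both sham libraries.

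**Figure D1:**
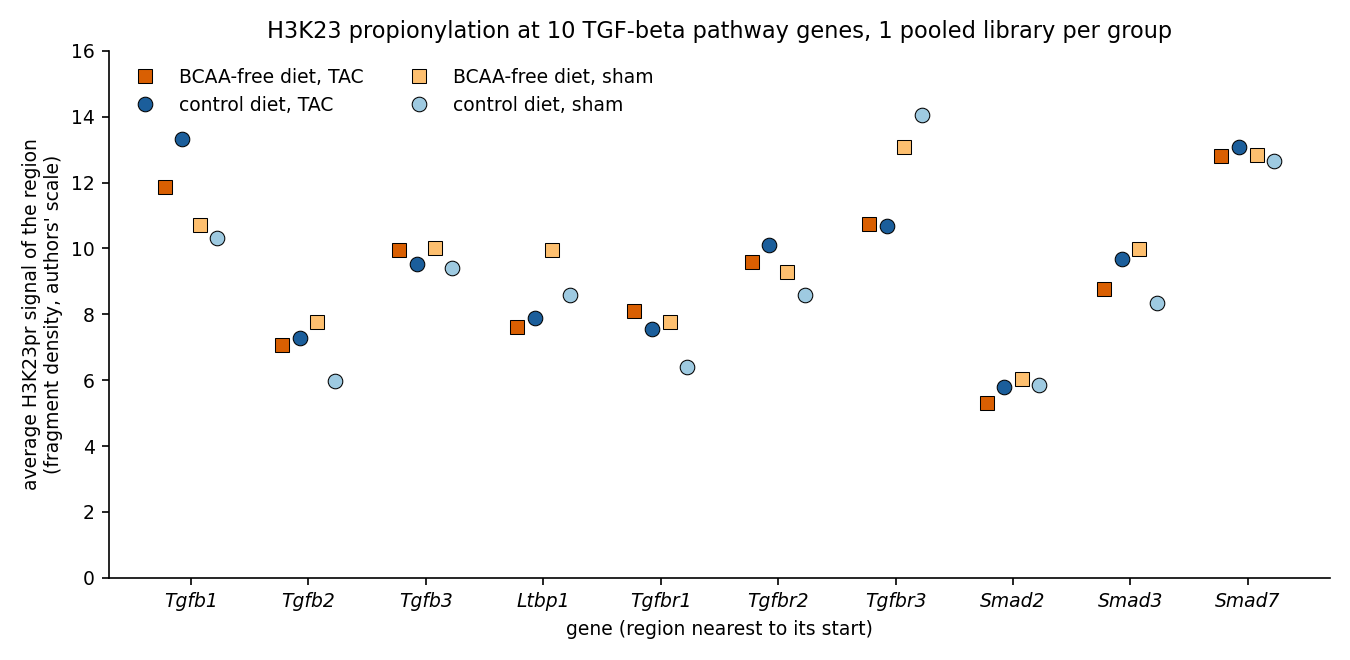
Average H3K23pr signal (vertical axis, fragment density on the authors' scale) at the region nearest to the start of each of the 10 genes, 1 point per pooled library with no error bar. Tgfbr3 has both TAC libraries below both sham libraries (10.7 in both TAC libraries, against 13.1 and 14.0 in sham), and the Smad7 points lie close together (12.7 to 13.1).

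Of the 3 ligand genes, Tgfb1 had the highest TAC over sham ratio of the average signal at the nearest region on both diets, an order that did not hold by peak height. At that region (mm10 chr7:25671600-25694199), the signal was 11.9 in TAC against 10.7 in sham on the BCAA-free diet, and 13.3 in TAC against 10.3 in sham on the control diet. Both TAC libraries lay above both sham libraries. As log2 of (signal + 1), TAC over sham was 0.14 on the BCAA-free diet (95% counting interval 0.03 to 0.25) and 0.34 on the control diet (0.23 to 0.45). These intervals cover counting error only and not variation between hearts or pools. By peak height, the Tgfb1 ratio was -0.12 on the BCAA-free diet, the opposite sign, and 0.18 on the control diet, and Tgfb3 was the highest of the ligand genes on both diets (0.17 and 0.51). Within TAC, the BCAA-free over control diet ratio was -0.15 (-0.26 to -0.05), and within sham it was 0.05 (-0.06 to 0.16). The second region of Tgfb1, 24.3 kb downstream and shared with Ccdc97 and Hnrnpul1, had the densest signal of the 32, at 16.6 in BCAA-free TAC, 17.5 in control TAC, 16.7 in BCAA-free sham and 15.5 in control sham.

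Tgfb2, the isoform that depends most on betaglycan, had a TAC ratio of opposite sign on the 2 diets at its nearest region only. Its nearest region (chr1:186676000-186709599) had 7.08 in TAC against 7.77 in sham on the BCAA-free diet, and 7.27 in TAC against 5.98 in sham on the control diet. The control sham library was the low one, and the TAC libraries lay between the sham libraries. TAC over sham was -0.12 (-0.22 to -0.01) on the BCAA-free diet and 0.24 (0.13 to 0.35) on the control diet. The difference was -0.36 (-0.51 to -0.21), and the diet ratio in sham was 0.33 (0.22 to 0.44). These ratios share libraries and are not separate observations. The 2 further regions of Tgfb2 lay below 0 for TAC over sham on both diets, with intervals that include 0. The one of 1.8 kb had -0.22 on the BCAA-free diet and -0.31 on the control diet, and -0.74 and -0.58 by peak height. It held 46.0 to 59.8 estimated tags per library and was called in BCAA-free sham only. The one of 6.0 kb had -0.16 on the BCAA-free diet and -0.08 on the control diet, and -1.13 and 0 by peak height.

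The regions of Tgfb3 differed in their TAC ratios. By average signal the nearest region (chr12:86069400-86109599, 40.2 kb) was close to even, with 9.94 in TAC against 10.02 in sham on the BCAA-free diet and 9.51 in TAC against 9.42 in sham on the control diet. By peak height it was not, with ratios of 0.17 on the BCAA-free diet and 0.51 on the control diet. A region of 4.4 kb beyond the gene's other end (chr12:86044400-86048799) had 10.7 in TAC against 4.38 in sham on the BCAA-free diet, and 10.9 in TAC against 5.55 in sham on the control diet. Both TAC libraries were thus high and both sham libraries low, and the peak was called in the TAC libraries only. TAC over sham was 1.13 (0.82 to 1.43) on the BCAA-free diet and 0.86 (0.57 to 1.15) on the control diet, from 211 and 214 estimated tags in the TAC libraries and 85.9 and 109 in the sham libraries. Counting itself, 5 of the 29210 regions had a ratio at least as high on the BCAA-free diet and 207 on the control diet. With peak height in place of average signal the ratios of this far region were 1.49 on the BCAA-free diet and 0.72 on the control diet. This region starts 7944 bases beyond the RefSeq end of Tgfb3, and the table also lists it under Ttll5, a tubulin polyglutamylase gene, so it cannot be assigned to Tgfb3. It was singled out after its values were seen. It also entered the merged regions through peak calls in the TAC libraries, where it was high, so its rank is no independent support. Between it and the start, a region of 6.2 kb at the end of the gene had 8.0 in BCAA-free TAC, 6.75 in control TAC, 6.58 in BCAA-free sham and 5.13 in control sham, with no call in control sham.

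**Figure D2:**
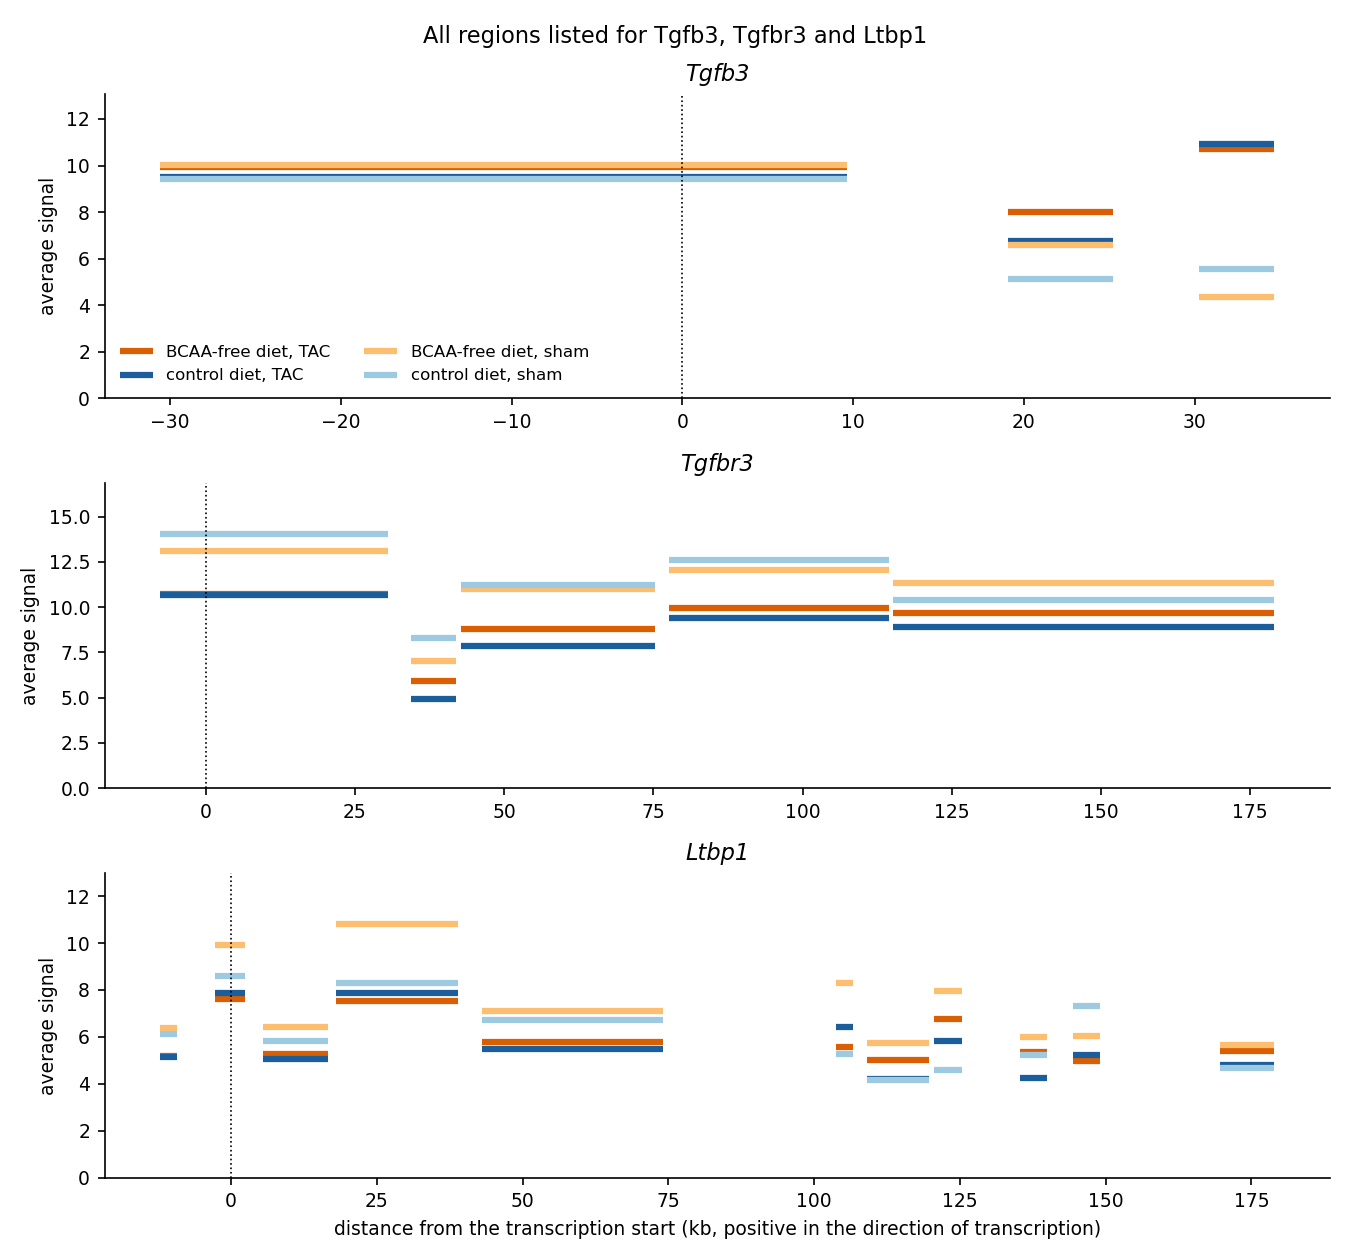
Average signal (vertical axes) of every region listed for Tgfb3, Tgfbr3 and Ltbp1 by distance from the transcription start in kb (horizontal axes, positive in the direction of transcription), with 1 bar per region and library, as long as the region. At the far right of Tgfb3 the TAC libraries (10.7 and 10.9) lie above the sham libraries (4.38 and 5.55), and along Tgfbr3 the TAC bars lie below the sham bars in all 5 regions.

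By average signal, Ltbp1, which stores latent TGF-β in the matrix, was lower in TAC than in sham at its listed regions on the BCAA-free diet. Not all of their intervals exclude 0. These regions cover 26.4% of the gene, and one of 2.8 kb lies upstream of it. At its start (chr17:75002800-75007999) the signal was 7.62 in TAC against 9.94 in sham on the BCAA-free diet, and 7.87 in TAC against 8.60 in sham on the control diet. Both TAC libraries lay below both sham libraries, with ratios of -0.34 (-0.60 to -0.09) on the BCAA-free diet and -0.11 (-0.37 to 0.14) on the control diet. By peak height these ratios were -0.04 on the BCAA-free diet and -0.12 on the control diet. By average signal, the ratio was below 0 in 11 of 11 regions on the BCAA-free diet and in 7 of 11 on the control diet, where 39.9% and 55.4% of all regions lay above 0. In sham hearts, the BCAA-free over control diet ratio was above 0 in 10 of 11 regions, as in 57.6% of all regions. These 11 regions are parts of 1 gene in the same libraries and not replicates. All 11 were called in BCAA-free sham, and the one of 3.0 kb there only. Those of 10.6 kb and 4.8 kb were called in the BCAA-free libraries only. Some regions thus entered through a library where they were high, so neither count is free of that choice. A region of 20.8 kb within the gene had 7.52 in TAC against 10.8 in sham on the BCAA-free diet, a ratio of -0.47 (-0.60 to -0.35), and 7.86 in TAC against 8.31 in sham on the control diet. The BCAA-free sham library was the high one there.

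The signalling receptors Tgfbr1 and Tgfbr2 were higher in TAC than in sham on the control diet. For Tgfbr1 (chr4:47348200-47374999) the signal was 8.09 in TAC against 7.78 in sham on the BCAA-free diet, and 7.54 in TAC against 6.40 in sham on the control diet. For Tgfbr2 (chr9:116119000-116190599) it was 9.58 against 9.29 on the BCAA-free diet and 10.1 against 8.58 on the control diet, again TAC against sham. In both genes the control sham library was the lowest. On the control diet the TAC over sham ratio was 0.21 for Tgfbr1 (0.09 to 0.33) and 0.21 for Tgfbr2 (0.15 to 0.28). On the BCAA-free diet it was 0.05 (-0.06 to 0.17) for Tgfbr1 and 0.04 (-0.03 to 0.11) for Tgfbr2, intervals that include 0. By peak height the Tgfbr1 ratio was 0.32 on the BCAA-free diet and 0.27 on the control diet, so the diets did not differ in this way. The Tgfbr2 ratio by peak height was -0.10 on the BCAA-free diet, the opposite sign, and 0.32 on the control diet.

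The co-receptor gene Tgfbr3 was lower in TAC on both diets and along its whole length. Its nearest region (chr5:107259000-107297199) had 10.7 in TAC against 13.1 in sham on the BCAA-free diet, and 10.7 in TAC against 14.0 in sham on the control diet. The TAC and sham libraries did not overlap. TAC over sham was -0.26 (-0.34 to -0.18) on the BCAA-free diet and -0.37 (-0.45 to -0.28) on the control diet. By peak height the ratio was -0.05 on the BCAA-free diet and -0.33 on the control diet. All 5 of its regions, which cover 93.5% of the gene, lay below 0 on both diets, as 35.1% of all regions did, and they shared the same libraries. The lowest was a region of 7.6 kb with 5.89 in TAC against 7.05 in sham on the BCAA-free diet and 4.93 in TAC against 8.28 in sham on the control diet, a control-diet ratio of -0.65 (-0.88 to -0.41). Tgfbr3 had the widest range of the 10 over the 4 libraries, 0.37 on the log2 scale. Of 4182 candidate genes, the nearest regions of Tango2, Dlat and Pdpr had the pattern most like it, at distances of 0.037, 0.039 and 0.040 over the 4 centred log2 values. Dlat, for example, had 8.25 in TAC against 10.2 in sham on the BCAA-free diet and 8.22 in TAC against 11.3 in sham on the control diet. These regions also list Arvcf (with Tango2), Dixdc1 (with Dlat) and Clec18a (with Pdpr).

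Among the transducers, Smad3 was marked over a single region of 118 kb (chr9:63643800-63761799) that covers the whole gene. Its signal was 8.75 in TAC against 9.98 in sham on the BCAA-free diet, and 9.69 in TAC against 8.35 in sham on the control diet. As for Tgfb2, the BCAA-free sham library was the highest and the control sham library the lowest. TAC over sham was -0.17 (-0.22 to -0.12) on the BCAA-free diet and 0.19 (0.14 to 0.25) on the control diet, and the difference was -0.36 (-0.44 to -0.29). By peak height, TAC over sham was -0.23 on the BCAA-free diet and 0.02 on the control diet.

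Smad2, the other receptor-activated SMAD, had 5.31 in TAC against 6.04 in sham on the BCAA-free diet and 5.79 in TAC against 5.85 in sham on the control diet (chr18:76237000-76263199). The ratio was -0.16 (-0.29 to -0.03) on the BCAA-free diet and -0.01 (-0.14 to 0.12) on the control diet. By peak height the Smad2 ratio was -0.19 on the BCAA-free diet and 0.12 on the control diet. Of its 2 further regions within the gene, one of 2.0 kb had 3.44 in TAC against 8.58 in sham on the BCAA-free diet, a ratio of -1.11 (-1.60 to -0.62), and 6.03 in TAC against 7.05 in sham on the control diet. It rests on 30.7 estimated tags in BCAA-free TAC and 76.6 in BCAA-free sham, the one library with a call. That region thus entered the merged regions through the library where it was highest. The other, of 6.0 kb, had 5.67 in BCAA-free TAC, 7.60 in control TAC, 6.80 in BCAA-free sham and 11.3 in control sham, which stood above the rest. Smad7 (chr18:75361000-75412399) had 12.8 in TAC against 12.8 in sham on the BCAA-free diet and 13.1 in TAC against 12.7 in sham on the control diet, and all 4 of its ratios had intervals that include 0. By peak height, TAC over sham at Smad7 was -0.13 on the BCAA-free diet and -0.21 on the control diet.

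At the nearest regions, 0 of the 10 genes passed 1.5-fold, a log2 ratio of 0.58, which is a cut by size and stands in for a test. The share of all genes past it in either direction was 1.53% for TAC over sham on the BCAA-free diet and 4.93% on the control diet. For the BCAA-free over the control diet it was 0.89% in TAC and 1.51% in sham. With 10 genes, counts of 0 lie close to these shares. The members' median TAC over sham ratio was -0.06 on the BCAA-free diet (all genes -0.03) and 0.12 on the control diet (all genes 0.05). Over the 7 genes alone in their nearest region, the control-diet median was 0.045. Over all 10 members, the median diet ratio was -0.04 in TAC (all genes -0.04) and 0.09 in sham (all genes 0.04).

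The control sham library was the lowest of the 4 at 7 of the 10 nearest regions, as at 33.6% of all genes. Over all 32 regions, TAC over sham passed 1.5-fold in 1 region higher and 1 lower on the BCAA-free diet (all regions 1.41% and 2.37%) and in 1 higher and 1 lower on the control diet (all regions 4.36% and 5.31%). The higher one was on both diets the region beyond Tgfb3, which was called in the TAC libraries only. Of all regions, 0.623% passed in that direction on both diets. For the BCAA-free over the control diet, 0 regions were past it higher and 1 lower in TAC (all regions 0.948% and 0.962%), and 1 higher and 1 lower in sham (all regions 2.71% and 1.37%). These were regions within Smad2 (-0.66 in TAC and -0.65 in sham) and Ltbp1 (0.68 in sham). The Ltbp1 region was called in the BCAA-free libraries only. The difference of the TAC ratios between diets passed 1.5-fold at 0 of the 10 nearest regions, against 2.89% of all genes, and its median was -0.16 (all genes -0.07).

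**Figure D3:**
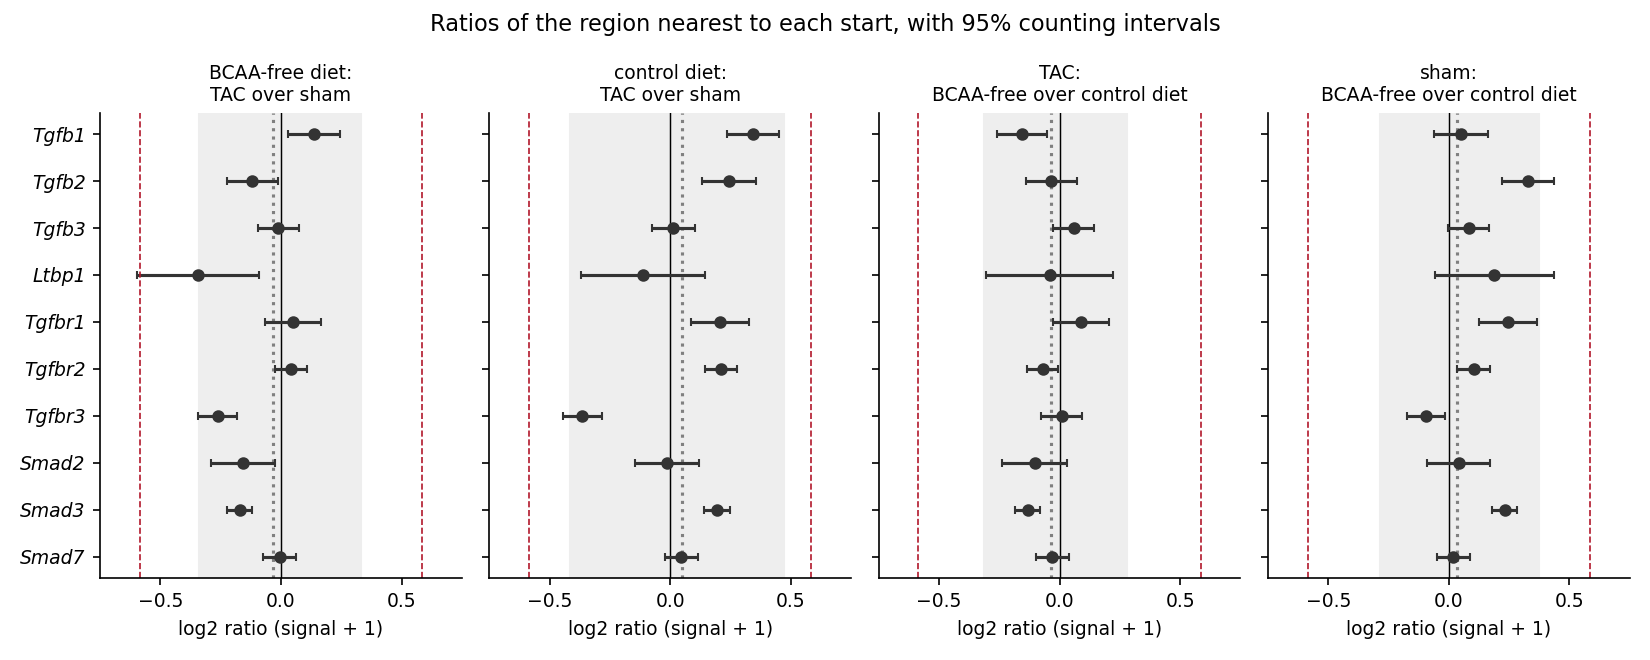
Log2 ratio of (signal + 1) at the nearest region of each gene (horizontal axes) in the 4 library comparisons, with 95% counting intervals as bars. Grey bands hold the central 90% of all genes, dotted lines their median and dashed red lines 1.5-fold. No point passes a dashed line, and Tgfbr3 lies left of 0 in both TAC over sham panels (-0.26 and -0.37).

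**Figure D4:**
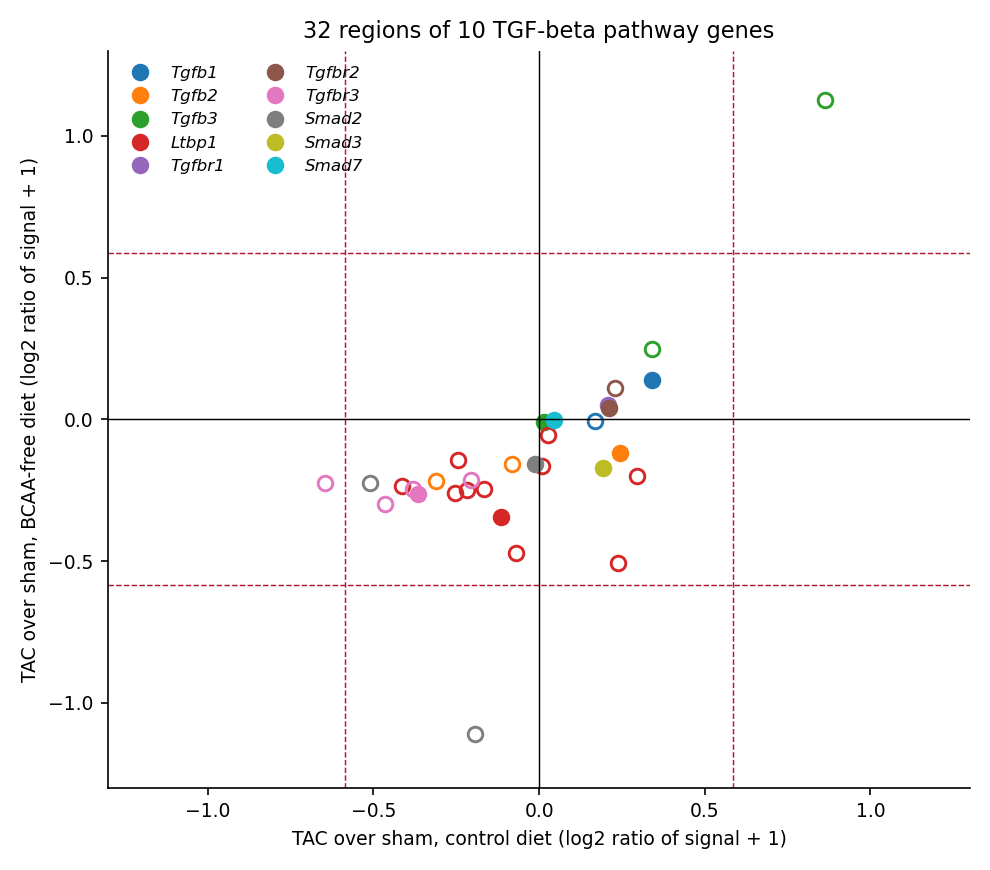
TAC over sham ratio of the 32 regions on the control diet (horizontal axis) and the BCAA-free diet (vertical axis), as log2 of (signal + 1), with filled points for nearest regions, open points for others and dashed lines at 1.5-fold. The open point at the upper right is the region beyond Tgfb3 (1.13 on the BCAA-free diet, 0.86 on the control diet), and the lowest open point is the 2.0 kb region of Smad2 (-1.11 on the BCAA-free diet).

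Of 118 further pathway genes, 109 had a region. For TAC over sham their median ratio was 0.02 on the BCAA-free diet and 0.09 on the control diet. On the BCAA-free diet 4 of the 109 were past 1.5-fold higher and 0 lower, against 0.85% and 0.68% of all genes. These were the target genes Tnc (0.75), which encodes the matrix protein tenascin C, Cthrc1 (0.68) and the oxidase gene Nox4 (0.67), and the antagonist gene Smoc1 (0.68). On the control diet the counts were 2 higher and 0 lower, against 2.82% and 2.1%. These were the matrix gene Postn (0.65) and the transcription factor gene Runx1 (0.64). Being past the cut on a single diet does not mean a gene was even on the other. On the control diet Tnc had 0.51, Cthrc1 0.33, Nox4 0.09 and Smoc1 -0.28. On the BCAA-free diet Postn had 0.37 and Runx1 0.47. Counting intervals on the BCAA-free diet were wide, at 0.27 to 1.23 for Tnc and 0.28 to 1.09 for Cthrc1. They were 0.24 to 1.10 for Nox4 and 0.109 to 1.246 for Smoc1. On the control diet they were 0.41 to 0.89 for Postn and 0.45 to 0.83 for Runx1. Cthrc1 was named after its values were seen.

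On the BCAA-free diet the median of the 29 target genes was 0.06, with 21 above 0, and on the control diet it was 0.15, with 23 above 0. Of all genes, 43.0% lay above 0 on the BCAA-free diet and 59.4% on the control diet. Postn had 7.65 in TAC against 5.71 in sham on the BCAA-free diet, and 7.96 in TAC against 4.72 in sham on the control diet. The classical target Ctgf had a ratio of 0.06 on the BCAA-free diet and of -0.06 on the control diet. The 17 genes of the latent complex and its activation had median ratios of 0.03 (BCAA-free diet) and 0.19 (control diet). Within it, Ltbp2 had ratios of 0.41 on the BCAA-free diet and 0.24 on the control diet, Ltbp3 0.11 and 0.13, and Ltbp4 -0.14 and 0.02. The shared SMAD gene Smad4 had -0.07 and 0.03, and the endothelial co-receptor gene Eng -0.11 and -0.23, each given for the BCAA-free diet and then the control diet. In the same order, the SMAD repressor genes Ski and Skil had -0.12 and 0.15, and 0.13 and 0.22. Some of these regions list further genes, and those of Ltbp3 and Eng list 5 genes each, so such values belong to the region.

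**Figure D5:**
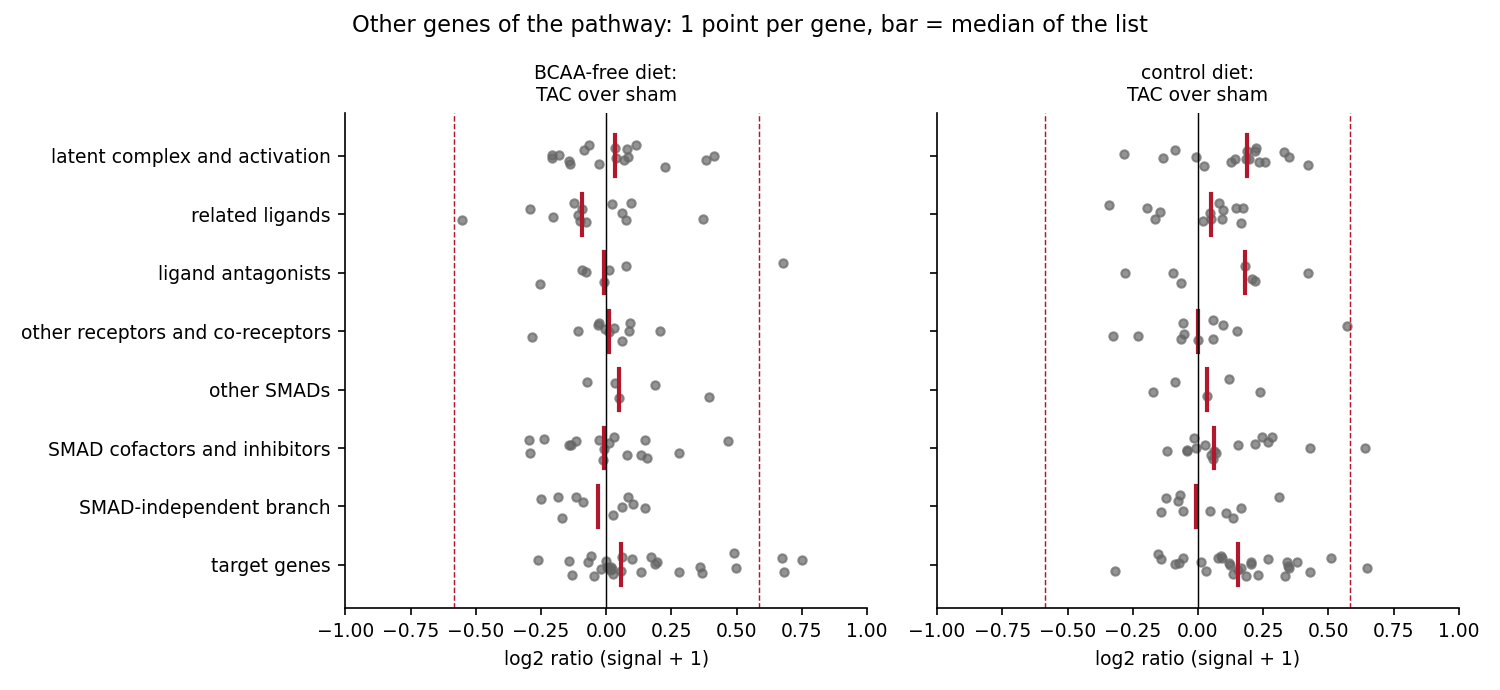
TAC over sham ratio, as log2 of (signal + 1), of the other pathway genes in 8 lists on the BCAA-free diet (left) and the control diet (right), with 1 point per gene, a red bar at the median of each list and dashed lines at 1.5-fold. The points past the dashed lines are Tnc, Cthrc1, Nox4 and Smoc1 on the BCAA-free diet and Postn and Runx1 on the control diet.

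Markers of cardiac cell types also differed between the libraries. The summed signal of 10 cardiomyocyte markers was 78.1 in TAC against 96.7 in sham on the BCAA-free diet, and 70.1 in TAC against 102.8 in sham on the control diet. The sum of 9 leukocyte markers was 79.0 in TAC against 62.1 in sham on the BCAA-free diet and 95.2 in TAC against 67.4 in sham on the control diet (Adgre1 was listed with no region). The cardiomyocyte sums lay lower in TAC on both diets and the leukocyte sums higher. Of the 10 cardiomyocyte markers, 9 had a TAC over sham ratio below 0 on the BCAA-free diet and 8 on the control diet. The 2 above 0 on the control diet were Mb (0.33) and Tnni3 (0.26). Of the 9 leukocyte markers, 8 lay above 0 on the BCAA-free diet and 9 on the control diet.

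The sum of 10 fibroblast markers was 96.1 in TAC against 100.8 in sham on the BCAA-free diet and 84.6 in TAC against 71.2 in sham on the control diet. All 10 fibroblast markers had a higher signal in BCAA-free sham than in control sham. Control sham was the lowest library in the fibroblast sum and in the smooth muscle and pericyte sum, as at 7 of the 10 nearest regions. The sum of 10 endothelial markers was 95.5 in TAC against 102.9 in sham on the BCAA-free diet and 102.9 in TAC against 116.2 in sham on the control diet. The sum of 8 smooth muscle and pericyte markers was 60.6 in TAC against 62.4 in sham on the BCAA-free diet and 63.1 in TAC against 56.5 in sham on the control diet. On the control diet 6 of these 8 had a TAC over sham ratio above 0 and 2 below. The highest was Cnn1, with 10.8 in TAC against 6.80 in sham, in a region shared with Elof1 and Acp5. Of 8 liver and neuron markers, Alb, Apoa1, Serpina1a and Neurod1 had no region, and the other 4 summed to 19.0 in BCAA-free TAC, 16.3 in control TAC, 23.5 in BCAA-free sham and 21.1 in control sham. The cardiomyocyte, endothelial, and liver and neuron sums were all lower in TAC on both diets, as was Tgfbr3. The part of cell type in the values of the 10 genes was not tested.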

How the data were processed

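H3K23 propionylation was profiled by ChIP-seq in 4 libraries, 1 per group, grouped by the treatment labels. The submitters' processing notes name BWA, MACS2 and mm10 without versions or roles. The authors deposited 1 table of merged regions, which per the file headers gives each library's average signal, its peak height (also a signal) and whether a peak was called. The authors' deposited log2 ratios were checked and equal the log2 of one average signal over the other, with nothing added.

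For all 29210 regions the ratio log2((A + 1)/(B + 1)) of the average signals was taken, with low regions kept, whose change this scale understates. Tags were estimated as average signal times region length over 224, a relation that held in all deposited tag columns. The 95% intervals use these tags and cover counting error only. Regions past 1.5-fold were called, without a test. A gene stands for the region whose middle is nearest to its start. The members and lists were chosen with earlier results of these data known.

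Further regions named were chosen after their values were seen. Other pathway genes named are the highest and lowest of a list in a comparison, plus Smad4, Ltbp2, Ltbp3, Ltbp4, Eng, Ski, Skil and Ctgf. Cthrc1 was added after its values were seen. A further gene that this rule selects is not reported here. Genes most like the member of widest range were taken by Euclidean distance over the 4 libraries. Gene positions and sequences are from RefSeq (GRCm38.p6, which mm10 denotes), where all 10 members were matched. Python 3.11.15, pandas 2.3.3, numpy 2.4.6, statsmodels 0.14.6 and matplotlib 3.10.9 were used, and the steps were tested on simulated data. Alternatives were no pseudocount, peak height, libraries scaled to the same median, removal of the trend with signal (lowess, fraction 0.3), other choices of region, regions with all 4 calls, and a lower and a higher fold threshold.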

Additional observations from a re-analysis of the deposited data

Results flagged for a closer look

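At 3 of the 10 nearest regions a ratio had opposite signs in the 2 settings compared, with both counting intervals away from 0. Each group is 1 library, so the difference was not tested against variation between hearts. For TAC over sham, Tgfb2 had -0.12 on the BCAA-free diet and 0.24 on the control diet, and Smad3 had -0.17 on the BCAA-free diet and 0.19 on the control diet. Such opposite ratios occurred in 470 of all regions (1.61%). For the BCAA-free over the control diet, Tgfbr2 had -0.069 in TAC and 0.10 in sham, and Smad3 had -0.13 in TAC and 0.23 in sham. This occurred in 527 of all regions (1.8%). Counting intervals are narrower where a region holds more tags, so these shares are not a like background. The flagged regions held 898 to 1165 estimated tags per library for Tgfb2, 2743 to 3227 for Tgfbr2 and 4400 to 5259 for Smad3. Over all regions the median was 198 to 205. The Smad3 values of both kinds come from the same 4 libraries and count as 1 pattern.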

How the results depend on the processing

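No paired analysis was possible because each group has 1 library and a replicate number shared by single libraries pairs nothing. The median control-diet TAC over sham ratio was 0.045 over the 7 genes alone in their nearest region. At a lower threshold (0.32 on the log2 scale), 1 gene passed for TAC over sham on the BCAA-free diet, 2 on the control diet, 1 for the diet ratio in sham and 2 for the difference of the TAC ratios between diets. The share of all genes past this lower threshold was not computed, so these counts have no background. Taking for each gene its region of highest signal, 1 gene (Smad2) passed 1.5-fold for the diet ratio in sham. It was lower, as 1.37% of all regions were past 1.5-fold. With peak height, the median difference of the TAC ratios between diets was -0.28 and 1 gene passed. The cause was not tested. By that measure, 2405 of all 29210 regions passed 1.5-fold higher for this difference and 4130 lower. No median or count over the 10 genes reversed, but single ratios changed sign: 28 with peak height (up to 0.23 in size, among them Tgfb1 for TAC over sham on the BCAA-free diet), 21 with the trend removed, 13 with scaled libraries, and 3 each with the region of highest signal and the length-weighted mean. Of 160 single ratios, 84 moved beyond their counting interval with peak height, 1 with scaled libraries, 2 with the trend removed and 0 without a pseudocount. With libraries scaled to the same median, the regions past 1.5-fold for TAC over sham on the BCAA-free diet were 599 higher and 472 lower, against 413 and 693 as deposited, and 5 of the 10 genes lay above 0 there, against 3. Directions of small ratios therefore depend on the unknown scaling and on the use of average signal or peak height. One library per group and the lack of an input library limit every value.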

Other observations

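Among genes of the related bone morphogenetic protein (BMP) branch, 2 had a TAC ratio that differed past 1.5-fold between the diets. Smoc1, a secreted BMP antagonist gene, had 7.68 in TAC against 4.43 in sham on the BCAA-free diet, and 4.84 in TAC against 6.09 in sham on the control diet. Its TAC over sham ratio was 0.68 on the BCAA-free diet and -0.28 on the control diet, a difference of 0.96 (95% counting interval 0.15 to 1.77). The ligand gene Bmp5 had 3.28 in TAC against 5.27 in sham on the BCAA-free diet and 3.53 in TAC against 3.25 in sham on the control diet, a difference of -0.64 whose interval, -1.29 to 0.01, includes 0. The middle of that region lies 82434 bases from the start of Bmp5. Of the 109 pathway genes these were the ones whose difference passed 1.5-fold, as 2.89% of all genes did. Neither difference has a replicate check.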
